A study of Mus musculus with 43 samples.

Results

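The 9 genes described here belong to a signalling and transcription circuit. They are given as a list of names with no rule on their values, and were chosen with earlier results of these data known. They are the receptor Csf1r, its ligands Csf1 and Il34, the related receptor chains Csf2ra, Csf2rb and Csf3r, and the transcription factors Spi1, Irf8 and Runx1. All 9 were found among the 55416 genes counted in each of 43 RNA-seq libraries, and a library is 1 cell type of 1 mouse. Cells were panned in succession on antibody-coated dishes from the cortical grey matter of perfused 3-month-old mice. Microglia came first, with an antibody to CD45, then oligodendrocyte precursor cells (OPCs), oligodendrocytes and last astrocytes. Control and Rag2-/- littermates were compared, in 6 pairs. Rag2-/- mice carry a germline deletion of a gene that lymphocytes need to rearrange their antigen receptors, so they lack mature T and B cells but keep natural killer cells and myeloid cells. The controls were immunocompetent: Rag2+/- in pairs 1, 2, 3 and 5 and Rag2+/+ in pairs 4 and 6. Pairs 1, 3 and 4 were male and pairs 2 and 5 female, and pair 6 joined a male control with a female Rag2-/- mouse. Astrocytes and microglia had 6 libraries per genotype, OPCs 6 control and 5 Rag2-/- libraries, and oligodendrocytes 4 of each.

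CSF1R is a receptor tyrosine kinase at the surface of microglia and other mononuclear phagocytes, which need its signal to survive. Its ligands, CSF1 and IL-34, bind the same receptor without resembling each other in sequence, and in the healthy brain IL-34 is known mainly as a product of neurons and CSF1 mainly as a product of glia. The GM-CSF receptor joins a ligand-binding alpha chain, from Csf2ra, to a beta chain, from Csf2rb, that the receptors for IL-3 and IL-5 also use. Csf3r encodes the receptor for G-CSF, best known from neutrophils. Spi1 encodes PU.1, an ETS factor that myeloid cells depend on and that acts on genes for these receptors. IRF8 works beside PU.1 on composite DNA sites, and RUNX1 is needed for blood cell progenitors to form, the ancestors of microglia included.

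Libraries held 6499417 to 23118497 counts on genes, with a median of 10447042. Levels are given as CPM, a library's counts scaled to the same total over all genes. Transcripts encoded in mitochondria took 6.75% to 11.7% of counts in microglia, 22.5% to 45.1% in astrocytes, 22.4% to 36.7% in OPCs and 45.8% to 60.1% in oligodendrocytes, so that CPM sets a nuclear gene lower in oligodendrocytes than a scale without those transcripts would. Rag2 itself had at most 4 counts in a control library and 0 in the 21 Rag2-/- libraries, too few to check a label. Iftap, which overlaps Rag2 on the genome, had 14 to 208 counts in the 22 controls and 0 to 2 in the Rag2-/- libraries, and no library went against its label. A panel of 8 microglia markers (Tmem119, Itgam, Ptprc, Cd68, P2ry12, C1qa, Aif1 and Cx3cr1) summed to between 5514 and 6352 CPM in microglia, 131 to 551 in oligodendrocytes, 142 to 620 in OPCs and 43.9 to 153 in astrocytes. In each of the 3 cell types other than microglia, both libraries of pair 3 had the highest sums, and they stand apart in several results. Summed markers of oligodendrocytes, astrocytes and OPCs were each highest in their own cell type, with means of 19034, 20590 and 4348 CPM.

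Csf1r (GRCm39 chromosome 18, bases 61229714 to 61266535, plus strand) had the most counts of the set and was highest in microglia. In control microglia it ran from 3489 to 5183 CPM with a median of 4610, and in Rag2-/- microglia from 4215 to 5061 CPM with a median of 4383. The low end was control replicate 1, the smallest of the microglia libraries, and the genotypes overlapped. Oligodendrocytes had 107, 344, 162 and 63.4 CPM in control replicates 1, 3, 5 and 6, and 111, 335, 122 and 118 CPM in the matching Rag2-/- libraries. Pair 3 stood far above the other 6 libraries in either genotype. OPCs ran from 72.4 to 449 CPM with a median of 156, and astrocytes from 24.7 to 137 CPM with a median of 44.2. Pair 3 was highest in both cell types. The means were 4494 ± 447 CPM in microglia (SD, n = 12), 194 ± 131 in OPCs (n = 11), 170 ± 108 in oligodendrocytes (n = 8) and 56.3 ± 32.8 in astrocytes (n = 12), and no library of another cell type came near the lowest microglia library. The antibody to CD45 binds other leukocytes as well, and in the microglia libraries markers of border macrophages summed to 450 to 1031 CPM in controls and 481 to 944 in Rag2-/- libraries. Markers of monocytes came to 4.07 to 19.1 CPM in all 12, those of T and B lymphocytes to 1.74 to 13.7 and those of NK cells to 0.558 to 7.10. Their part in the levels of the 9 genes was not tested.

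A quasi-likelihood fit of edgeR took all 43 libraries, with terms for cell type, sex and genotype. Csf1r was 66.9-fold higher in microglia than in astrocytes (log2 6.06, SE 0.32, adjusted p = 1.8e-21). The difference was 26.0-fold against OPCs (log2 4.70, SE 0.31, adjusted p = 6.36e-18) and 14.4-fold against oligodendrocytes (log2 3.85, SE 0.34, adjusted p = 1.01e-13). Astrocytes were lower than OPCs (log2 -1.36, SE 0.26, adjusted p = 3.54e-05) and than oligodendrocytes (log2 -2.21, SE 0.28, adjusted p = 9.33e-09). OPCs were lower than oligodendrocytes in the fit (log2 -0.85, SE 0.29, adjusted p = 0.0154), although their mean CPM was higher. Without mitochondrial counts the means were 353 CPM in oligodendrocytes and 267 in OPCs, which is the order of the fit. That call was lost with control libraries alone (adjusted p = 0.173) and without pair 2 (adjusted p = 0.0562) or pair 5 (adjusted p = 0.0611). Of the 7361 exon bases of Csf1r, 1461 also lie in Hmgxb3 on the other strand, and without strand information reads from there cannot be told apart.

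All 9 genes passed an adjusted p of 0.05 between microglia and each other cell type. The base rate was high, since 69.7% of the 19209 genes tested passed between microglia and oligodendrocytes, 71.7% between microglia and OPCs and 72% between microglia and astrocytes. By direction, 8 of the 9 were higher in microglia each time, where 33.1%, 31.4% and 33.8% of all genes were. Il34 was the exception and was lower in microglia each time. The median log2 difference of the 9 was 4.06 against oligodendrocytes, 4.90 against OPCs and 6.32 against astrocytes, and the medians over all genes tested were -0.04, -0.19 and -0.13. Per the methods, libraries of a cell type shared a sequencing lane, so that lane and cell type cannot be told apart. In bulk libraries, fewer cells of a type and less RNA per cell cannot be told apart either.

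**Figure D1:**
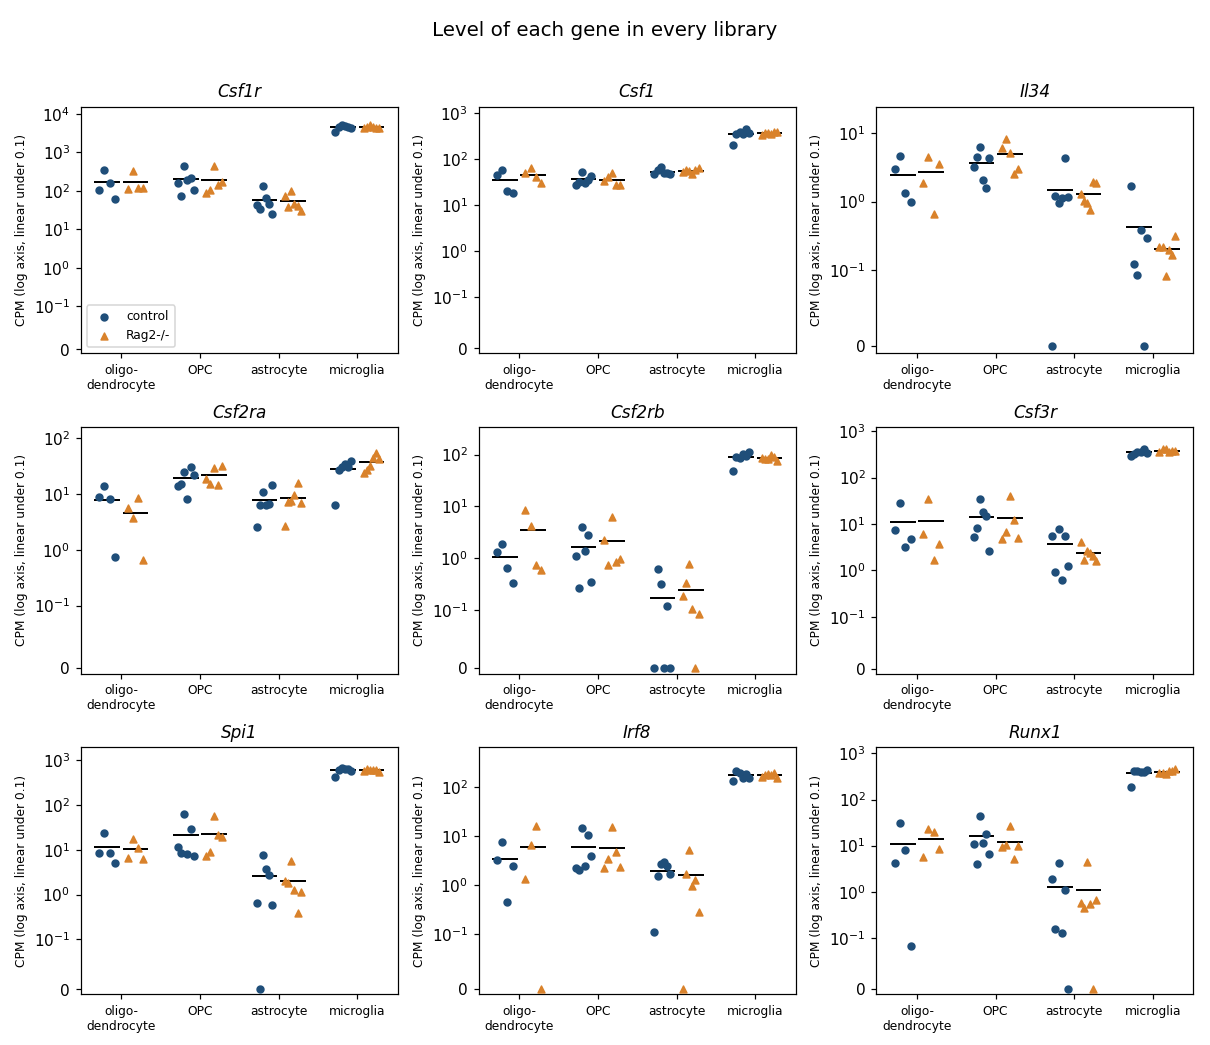
CPM of each of the 9 genes (y axis, logarithmic above 0.1 CPM) in every library by cell type (x axis), with circles for controls, triangles for Rag2-/- and a bar at the mean of each group. Csf1r lies between 3489 and 5183 CPM in microglia and at or below 449 CPM elsewhere, while Il34 is lowest in microglia and Csf2ra overlaps between OPCs and microglia.

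The ligand Csf1 (chromosome 3, bases 107648364 to 107667806, minus strand) was also most abundant in microglia. It ran from 198 to 454 CPM in control microglia (median 356) and from 331 to 382 CPM in Rag2-/- microglia (median 363). Control replicate 1 was the low library here too. Astrocytes held a narrow range of 46.1 to 67.7 CPM (mean 53.5 ± 6.67, SD, n = 12). OPCs ran from 26.9 to 52.6 CPM (mean 35.9 ± 9.13, n = 11) and oligodendrocytes from 18.4 to 63.2 CPM (mean 40.2 ± 16.4, n = 8). These 3 ranges overlapped each other and none reached that of microglia. Microglia were 10.5-fold higher than OPCs (log2 3.39, SE 0.15, adjusted p = 2.76e-24), 5.32-fold higher than astrocytes (log2 2.41, SE 0.14, adjusted p = 2.31e-20) and 4.64-fold higher than oligodendrocytes (log2 2.21, SE 0.16, adjusted p = 1.14e-16). Astrocytes exceeded OPCs 1.98-fold (log2 0.98, SE 0.13, adjusted p = 5.63e-08), and OPCs were lower than oligodendrocytes (log2 -1.18, SE 0.15, adjusted p = 8.88e-09). Astrocytes and oligodendrocytes were not told apart (log2 -0.20, SE 0.14, adjusted p = 0.261).

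Il34 (chromosome 8, bases 111423928 to 111532584, minus strand) was scarce in all cell types and ran the other way. In microglia, 11 of the 12 libraries held 4 counts or fewer, and control replicate 1, the smallest microglia library, held 11, or 1.69 CPM. Astrocytes had 0 to 36 counts, or 0 to 4.38 CPM with a median of 1.15. Oligodendrocyte control replicates 1, 3, 5 and 6 had 3.00, 4.61, 1.33 and 1.00 CPM, and the matching Rag2-/- libraries 1.87, 4.56, 0.651 and 3.60 CPM. OPCs ran from 1.57 to 8.21 CPM (mean 4.28 ± 2.05, n = 11), with Rag2-/- replicate 2 at the top. Their mean was the highest by CPM, and that of oligodendrocytes was on the TMM scale of the fit. The level in microglia was lower than in OPCs (log2 -3.64, SE 0.53, adjusted p = 5.55e-08), oligodendrocytes (log2 -3.95, SE 0.55, adjusted p = 2.91e-08) and astrocytes (log2 -2.39, SE 0.52, adjusted p = 7.5e-05). With control libraries alone the last of these missed the threshold (adjusted p = 0.0635). Astrocytes were below OPCs (log2 -1.24, SE 0.47, adjusted p = 0.0291) and oligodendrocytes (log2 -1.55, SE 0.51, adjusted p = 0.00988), and neither call held with the mouse as a replicate block (adjusted p = 0.0855 and 0.07) or with control libraries alone (adjusted p = 0.451 and 0.271). The first was also lost without pair 2, 3, 4 or 6 (adjusted p = 0.21, 0.129, 0.0904 and 0.0543) and without the count minimum (adjusted p = 0.0579), and the second without pair 3 or 4 (adjusted p = 0.108 and 0.0523). OPCs and oligodendrocytes were not told apart (log2 -0.31, SE 0.50, adjusted p = 0.658).

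Markers of neurons, the known main source of IL-34 in the brain, differed between the same libraries. Their sum over 8 genes was 91.8 ± 27.4 CPM in microglia, 187 ± 45.4 in astrocytes, 554 ± 123 in OPCs and 978 ± 474 in oligodendrocytes. The cell types with the lowest sums, microglia and astrocytes, were also those with the least Il34. OPCs had more Il34 than oligodendrocytes by CPM at a lower sum. On the TMM scale oligodendrocytes had the higher mean, and the edgeR fit did not tell these cell types apart (log2 -0.31, SE 0.50, adjusted p = 0.658). The part of neuronal RNA in these levels was not tested.

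The TPM scale divides by exon length before scaling to the same total. On it the ligands can be set beside each other and beside the receptor. Lengths were those of all annotated exons joined, 5877 bases for Csf1 and 3810 for Il34. The canonical transcripts have 4197 and 1758 bases, and the shares depend on that choice. Csf1 exceeded Il34 in every cell type. In microglia Csf1 was at 182 ± 36.1 TPM and Il34 at 0.233 ± 0.3, and in astrocytes at 21 ± 2.9 and 0.849 ± 0.671. OPCs had 15.6 ± 4.25 TPM of Csf1 and 2.87 ± 1.4 of Il34, and oligodendrocytes 12.6 ± 5.73 and 1.25 ± 0.813. Il34 thus made up 15.2% ± 5.13 of the summed ligand TPM in OPCs, 8.9% ± 3.82 in oligodendrocytes, 3.8% ± 2.93 in astrocytes and 0.184% ± 0.355 in microglia. The balance of receptor and ligand also differed. Microglia carried 10.3 ± 1.47 TPM of Csf1r for each TPM of Csf1, astrocytes 0.828 ± 0.403, OPCs 4.15 ± 1.89 and oligodendrocytes 3.44 ± 1.6. The highest astrocyte library, at 1.62, lay below the lowest OPC library, at 1.88, and the lowest oligodendrocyte library, at 1.84. The summed microglia panel averaged 81.0 CPM in astrocytes, 293 in OPCs and 266 in oligodendrocytes. The part of microglial RNA in these ratios was not tested.

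**Figure D2:**
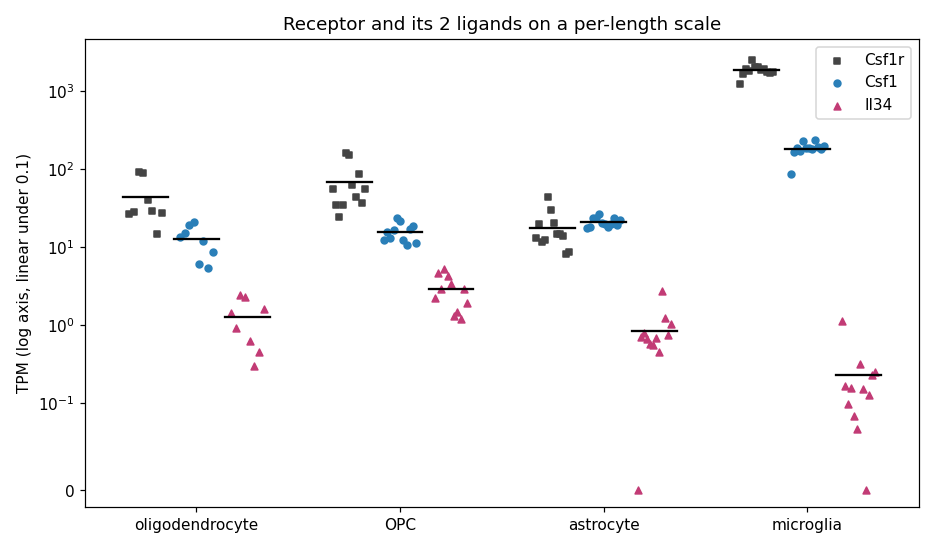
TPM (y axis, logarithmic above 0.1) of Csf1r (squares), Csf1 (circles) and Il34 (triangles) in every library by cell type (x axis), with a bar at each mean. Csf1 lies above Il34 in all 4 cell types, and astrocytes are the one cell type with mean Csf1 (21 TPM) above mean Csf1r (17.5 TPM).

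The chains of the GM-CSF receptor did not share a pattern. Csf2rb (chromosome 15, bases 78209952 to 78238047, plus strand), the shared beta chain, was almost restricted to microglia, at 48.0 to 114 CPM in controls (median 91.8) and 75.5 to 98.8 CPM in Rag2-/- libraries (median 85.0). Oligodendrocytes had 1.34, 1.88, 0.666 and 0.334 CPM in control replicates 1, 3, 5 and 6 and 8.5, 4.21, 0.744 and 0.588 CPM in the Rag2-/- libraries. Rag2-/- replicate 1 was the highest and Rag2-/- replicate 3 the next. OPCs ranged from 0.266 to 6.14 CPM and astrocytes from 0 to 0.775, with 4 of 12 astrocyte libraries at 0 counts. Microglia exceeded astrocytes 345-fold (log2 8.43, SE 0.51, adjusted p = 2.84e-19), OPCs 53.5-fold (log2 5.74, SE 0.43, adjusted p = 4.25e-16) and oligodendrocytes 24.4-fold (log2 4.61, SE 0.47, adjusted p = 8.89e-12). OPCs were below oligodendrocytes (log2 -1.13, SE 0.43, adjusted p = 0.0319), a call lost with the mouse as a replicate block (adjusted p = 0.0503), with control libraries alone (adjusted p = 0.658), and without pair 1 (log2 -0.47, adjusted p = 0.474), pair 2 (adjusted p = 0.0892) or pair 4 (adjusted p = 0.0929). Of the 50-base windows of the Csf2rb transcript, 19.1% also occur in transcripts of other genes, mostly of its near copy Csf2rb2. A read from such a window cannot be assigned to 1 gene by its sequence, so the levels of Csf2rb and Csf2rb2 are uncertain.

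Csf2ra (chromosome 19, bases 61212395 to 61216892, minus strand), the alpha chain, was instead spread over all 4 cell types. Microglia ran from 6.31 to 54.0 CPM (mean 32.8 ± 11.9, n = 12) and OPCs from 8.14 to 32.6 CPM (mean 20.6 ± 8.03, n = 11). Astrocytes ran from 2.53 to 16.1 CPM (mean 8.20 ± 4.17, n = 12) and oligodendrocytes from 0.661 to 14.3 CPM (mean 6.32 ± 4.6, n = 8). The ranges of microglia and OPCs overlapped, and the lowest microglia library, control replicate 1, lay below every OPC library. Microglia exceeded OPCs 1.66-fold (log2 0.74, SE 0.31, adjusted p = 0.0338). This call was lost with the mouse as a replicate block (adjusted p = 0.0517), with control libraries alone (adjusted p = 0.147) and without pair 4 (adjusted p = 0.0871) or pair 5 (adjusted p = 0.0644). Against astrocytes the difference was 3.22-fold (log2 1.69, SE 0.32, adjusted p = 7.39e-06), and against oligodendrocytes 2.65-fold (log2 1.41, SE 0.36, adjusted p = 0.000715), lost with control libraries alone (adjusted p = 0.11). Astrocytes were lower than OPCs (log2 -0.95, SE 0.32, adjusted p = 0.0125), a call lost with control libraries alone (adjusted p = 0.179) and without pair 2 (adjusted p = 0.0503). Per length, Csf2ra made up 46.5% ± 8.9 of the summed TPM of both chains in microglia. Its share was 96.5% ± 2.43 in OPCs, 98.7% ± 1.46 in astrocytes and 84.0% ± 13.9 in oligodendrocytes. The uncertain level of Csf2rb and the choice of exon length bear on these shares too.

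Csf3r (chromosome 4, bases 125918262 to 125938236, plus strand) was at 295 to 412 CPM in control microglia (median 348) and at 354 to 404 CPM in Rag2-/- microglia (median 371). Summed markers of neutrophils, the cells best known for this receptor, came to 7.69 to 113 CPM in the same libraries. The highest sum was in Rag2-/- replicate 5, where Csf3r was at 378 CPM. The part of neutrophil RNA in the Csf3r level was not tested. In oligodendrocytes, control replicates 1, 3, 5 and 6 had 7.35, 28.2, 3.22 and 4.76 CPM and the Rag2-/- libraries 6.03, 35.0, 1.67 and 3.75 CPM. Pair 3 was the highest, as it was in OPCs, at 34.3 and 39.7 CPM within a range that began at 2.57. Astrocytes ran from 0.623 to 7.73 CPM. Microglia exceeded astrocytes 102-fold (log2 6.67, SE 0.46, adjusted p = 3.78e-17), OPCs 30.9-fold (log2 4.95, SE 0.44, adjusted p = 9.33e-14) and oligodendrocytes 21-fold (log2 4.39, SE 0.49, adjusted p = 1.14e-10). Of the 50-base windows of its transcript, 13.4% also occur in transcripts of other genes.

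The transcription factors Spi1, Runx1 and Irf8 averaged 592 ± 64.4, 385 ± 67.9 and 171 ± 22.7 CPM in microglia (SD, n = 12). Spi1 (chromosome 2, bases 90912562 to 90946101, plus strand) ran from 5.02 to 23.6 CPM in oligodendrocytes, from 7.11 to 62.0 in OPCs and from 0 to 7.84 in astrocytes. The OPC libraries of pair 3, at 62.0 and 58.2 CPM, lay far above the next one, at 28.8. Runx1 (chromosome 16, bases 92398354 to 92623037, minus strand) ran from 0.0836 to 30.9 CPM in oligodendrocytes, 3.99 to 44.4 in OPCs and 0 to 4.39 in astrocytes. Irf8 (chromosome 8, bases 121463096 to 121485659, plus strand) ran from 0 to 16.2, 1.99 to 15.4 and 0 to 5.25 CPM in the same order. Its highest value outside microglia, 16.2 CPM, was in oligodendrocyte Rag2-/- replicate 5, a library whose microglia panel, at 246 CPM, was well below that of pair 3. Astrocytes had the least of each factor. Against them microglia were 212-fold higher for Spi1 (log2 7.73, SE 0.47, adjusted p = 3.44e-19), 259-fold for Runx1 (log2 8.02, SE 0.57, adjusted p = 7.86e-17) and 79.8-fold for Irf8 (log2 6.32, SE 0.53, adjusted p = 2.19e-14). Against OPCs the 3 differences were alike, at 30.0-fold, 29.9-fold and 31.9-fold, with SEs on the log2 scale of 0.42, 0.49 and 0.51.

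Since these factors are known to bind DNA near the receptor genes and near their own, promoters of 8 of the genes were searched for their core letters, over 250 bases before and 50 bases after the start of the canonical GENCODE transcript in GRCm39 (Csf1r was not searched). The letters were GAGGAA for PU.1, TGTGGT for RUNX and, for a joint PU.1 and IRF site, GGAA followed after any 2 bases by GAAA, on both strands. A joint site shares its first letters with PU.1 sites. GAGGAA stood in 4 of the 8 promoters (Csf2ra, Csf2rb, Spi1 and Runx1), and in 27.6% of 21614 promoters of protein-coding genes. TGTGGT stood in 1 of the 8, that of Runx1 (15.4% of all promoters), and the joint letters in none (2.98% of all). The promoters with the most matches, those of Spi1 and Csf2rb, and that of Runx1, the one with both kinds, are printed 5′ to 3′ in the direction of the gene with the matches in capitals, and that of Il34, the gene that ran the other way, for comparison. They lie at chr2:90926191-90926490 (plus strand), chr15:78209940-78210239 (plus), chr16:92622988-92623287 (minus) and chr8:111532535-111532834 (minus).
Spi1: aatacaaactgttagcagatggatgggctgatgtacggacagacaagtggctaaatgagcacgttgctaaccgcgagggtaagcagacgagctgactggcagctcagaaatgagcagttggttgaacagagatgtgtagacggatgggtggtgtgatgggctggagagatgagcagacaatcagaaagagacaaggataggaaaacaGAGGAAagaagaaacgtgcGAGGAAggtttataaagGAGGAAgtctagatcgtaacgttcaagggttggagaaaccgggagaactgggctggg
Csf2rb: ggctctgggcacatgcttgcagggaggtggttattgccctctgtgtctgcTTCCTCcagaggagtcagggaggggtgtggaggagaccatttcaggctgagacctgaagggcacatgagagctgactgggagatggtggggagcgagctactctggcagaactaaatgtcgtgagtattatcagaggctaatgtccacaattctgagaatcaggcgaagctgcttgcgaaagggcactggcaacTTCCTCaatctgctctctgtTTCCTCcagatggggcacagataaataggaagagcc
Runx1: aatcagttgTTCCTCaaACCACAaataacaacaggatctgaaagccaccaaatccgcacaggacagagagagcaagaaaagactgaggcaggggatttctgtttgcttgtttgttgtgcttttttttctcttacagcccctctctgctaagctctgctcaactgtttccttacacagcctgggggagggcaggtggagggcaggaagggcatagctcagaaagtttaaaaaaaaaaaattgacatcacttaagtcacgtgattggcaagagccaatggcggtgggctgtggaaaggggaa
Il34: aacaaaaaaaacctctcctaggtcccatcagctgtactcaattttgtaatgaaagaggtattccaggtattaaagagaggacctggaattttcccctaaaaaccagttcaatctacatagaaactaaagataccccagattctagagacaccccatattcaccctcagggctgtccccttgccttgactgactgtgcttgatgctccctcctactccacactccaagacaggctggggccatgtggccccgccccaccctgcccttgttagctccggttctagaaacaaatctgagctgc
Spi1 holds 3 matches, all on its own strand within 43 bases before the start, and Csf2rb 3 on the other strand. In Runx1, whose transcript starts far upstream, the letters for PU.1 and for RUNX lie 2 bases apart, both on the other strand. A match describes letters and not a bound site.

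In the comparisons that leave microglia out, the number of the 9 that passed ran from 3 to 9. Between OPCs and oligodendrocytes 40.4% of all genes passed and 3 of the 9 did, all lower in OPCs (Csf1r, Csf1 and Csf2rb). Astrocytes differed from oligodendrocytes in 51.5% of all genes and in 7 of the 9, all lower in astrocytes, with Csf1 and Csf2ra not passing. Between astrocytes and OPCs 44.2% of all genes passed and all 9 did, Csf1 higher in astrocytes and the other 8 lower. Irf8 lost its call there (log2 -1.33, SE 0.49, adjusted p = 0.0251) with control libraries alone (adjusted p = 0.0874) and without pair 2, 3 or 4 (adjusted p = 0.0542, 0.0654 and 0.0541), and Csf3r with control libraries alone (adjusted p = 0.0523). Between astrocytes and oligodendrocytes Irf8 lost its call with control libraries alone (adjusted p = 0.0613), and Csf2ra passed without pair 6 (log2 -0.78, adjusted p = 0.0435). The order of mean CPM was microglia, OPC, oligodendrocyte, astrocyte for Csf1r, Csf3r, Irf8, Spi1 and Runx1, and without mitochondrial counts OPCs and oligodendrocytes changed places in all of these but Spi1. Csf1 had astrocytes next after microglia by CPM and oligodendrocytes next without mitochondrial counts. OPCs and oligodendrocytes, neighbours in most of these orders, were not told apart by the fit for Il34, Csf2ra, Csf3r, Spi1, Irf8 or Runx1.

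Set beside the microglia panel, some of the genes kept the panel's proportion outside microglia, some fell short of it and some exceeded it. As a share of their mean CPM in microglia, the 8 panel genes stood at 3.06% to 5.82% in oligodendrocytes (median 4.00%), 3.47% to 5.71% in OPCs (median 4.71%) and 0.59% to 2.11% in astrocytes (median 1.13%). Csf1r lay inside these ranges, at 3.79%, 4.31% and 1.25%, and so did Csf3r, at 3.10%, 3.83% and 0.831%. Csf2rb lay below every panel gene, at 2.61%, 2.18% and 0.243%. Irf8 lay below in oligodendrocytes (2.76%) and OPCs (3.38%) and inside in astrocytes (1.02%), and Runx1 lay below in astrocytes alone (0.305%). Spi1 lay below in oligodendrocytes (1.84%) and astrocytes (0.391%) and inside in OPCs (3.70%). Csf1 lay above every panel gene, at 11.3%, 10.1% and 15.1%, as did Csf2ra at 19.3%, 62.8% and 25%. Il34 was at 817%, 1356% and 440% of its level in microglia.

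A related measure was tested library by library, as CPM of a gene per 100 CPM of the summed panel, chosen after the data were seen. The sum weighs the abundant panel genes most, so a gene inside the ranges above could still differ by it. Csf1 stood at 6.00 ± 0.9 in microglia and at 74.1 ± 24.6 in astrocytes, 16.5 ± 6.18 in oligodendrocytes and 15.3 ± 7.48 in OPCs. No library of these cell types overlapped those of microglia (permutation tests over libraries, two-sided, adjusted p = 4.15e-05 each over 27 tests, with each raw p the smallest its test can give). Csf2ra stood at 0.558 ± 0.216 in microglia, 11.9 ± 8.91 in astrocytes and 8.67 ± 4.41 in OPCs, again without overlap, and at 2.49 ± 1.72 in oligodendrocytes with overlap (exact permutation test, adjusted p = 0.00416). Csf1r was somewhat lower outside microglia, at 62.2 ± 10.6, 64.7 ± 8.19 and 66.7 ± 11.9 in oligodendrocytes, OPCs and astrocytes against 76.0 ± 4.85 (permutation tests, adjusted p = 0.00318, 0.00122 and 0.0208). Spi1 was lower too, at 4.04 ± 0.511 in oligodendrocytes and 2.44 ± 1.66 in astrocytes, neither overlapping the 10.0 ± 0.838 of microglia, and at 6.76 ± 2.57 in OPCs. Csf3r, at 6.14 ± 0.485 in microglia, was lower in all 3 other cell types, at 3.53, 4.25 and 3.77 in oligodendrocytes, OPCs and astrocytes (permutation tests, adjusted p = 0.00245, 0.00149 and 0.00424). Runx1, at 6.53 ± 1.2 in microglia, was lower as well, at 4.07, 4.604 and 1.16 (permutation tests, adjusted p = 0.00917, 0.00432 and 4.15e-05). Csf2rb was lower in OPCs and astrocytes (permutation tests, adjusted p = 4.15e-05 each) and Irf8 in OPCs (permutation test, adjusted p = 0.000154). Irf8 was not told apart from microglia by this measure in oligodendrocytes (adjusted p = 0.0655 by exact permutation test) or astrocytes (adjusted p = 0.105 by permutation test), nor was Csf2rb in oligodendrocytes (adjusted p = 0.28 by exact permutation test). Libraries of different cell types came from the same mice, which these tests do not use.

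**Figure D3:**
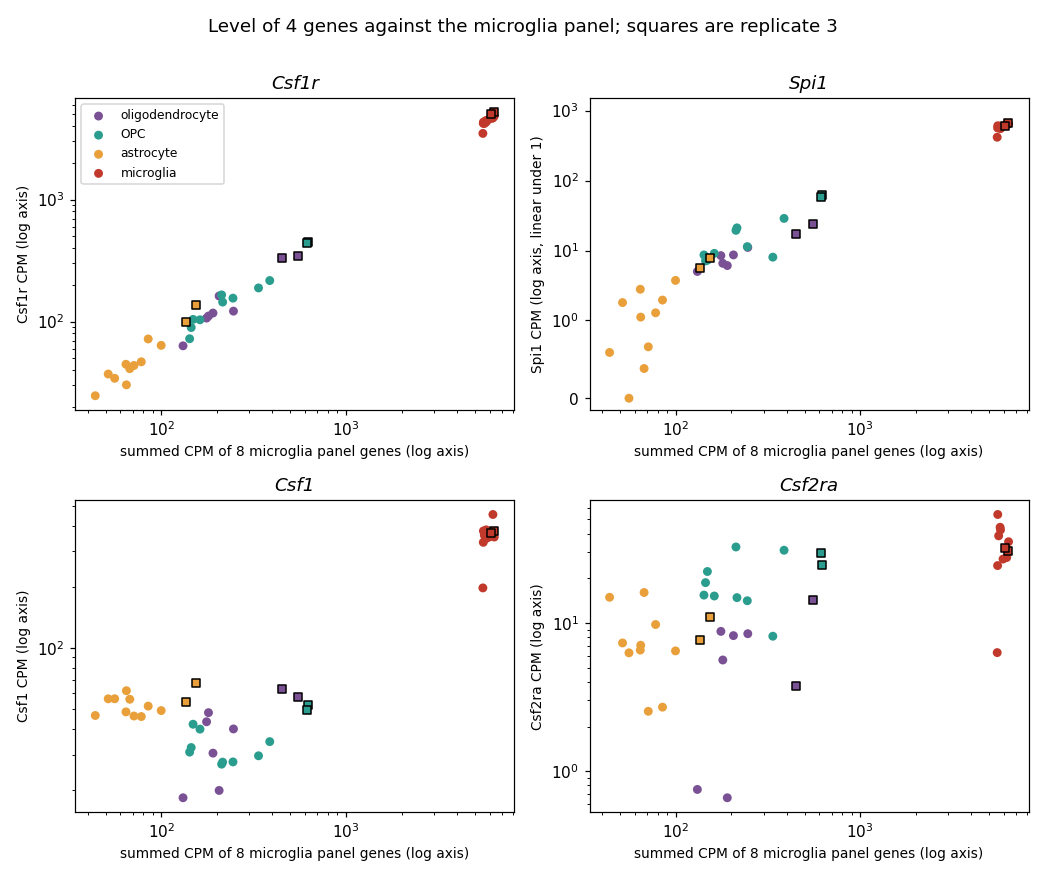
CPM of Csf1r, Spi1, Csf1 and Csf2ra (y axes, logarithmic, for Spi1 above 1 CPM) against the summed CPM of the 8 microglia panel genes in the same library (x axes, logarithmic), with colours for cell types and squares for pair 3. Csf1r rises with the sum across all cell types, while astrocytes hold Csf1 between 46.1 and 67.7 CPM over sums of 43.9 to 153 CPM.

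Within a cell type, too, Csf1r moved with the panel. The permutations here and in the next paragraph treated all libraries of a cell type as exchangeable. They did not use genotype or littermate pair, so their p-values may be too small. Over the 12 astrocyte libraries its CPM and the panel sum had Pearson's r = 0.968 (permutation p = 4e-05, adjusted over 27 relations 0.00054) and Spearman's rho = 0.909 (permutation p = 0.00016, adjusted 0.00216). Without both libraries of pair 3, which lie farthest out, r was 0.872. In OPCs r was 0.985 (permutation p = 2e-05, adjusted 0.00054) and rho 0.964 (permutation p = 2e-05, adjusted 0.00054), and r was 0.945 without pair 3. In oligodendrocytes r was 0.972 (exact permutation p = 0.00243, adjusted 0.00656) and rho 0.976 (exact permutation p = 0.000397, adjusted 0.00268), and r was 0.72 without pair 3. Without pair 3, Runx1 had r = 0.955 in oligodendrocytes and 0.786 in OPCs, and Spi1 r = 0.874 and 0.609. In astrocytes r was 0.62 for Spi1 without pair 3, and for Runx1 it dropped from 0.85 (permutation p = 0.0113, adjusted 0.0253) to 0.0966, so that this relation rested on those 2 libraries.

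Csf1 and the panel sum gave no relation past the threshold in astrocytes, with r = 0.443 (permutation p = 0.175, adjusted 0.249) and rho = 0.0699 (permutation p = 0.838, adjusted 0.87), and with r = -0.226 without pair 3. Csf2ra gave r = -0.0418 in astrocytes (permutation p = 0.947, adjusted 0.962), with rho = -0.042 (permutation p = 0.907, adjusted 0.907), and r = 0.423 in OPCs (permutation p = 0.195, adjusted 0.264), with rho = 0.191 (permutation p = 0.576, adjusted 0.677). In oligodendrocytes r was higher, at 0.758 for Csf1 (exact permutation p = 0.026, adjusted 0.053) and 0.551 for Csf2ra (exact permutation p = 0.208, adjusted 0.268). Without pair 3 these were 0.32 and 0.607. For Csf3r in oligodendrocytes r was 0.898 (exact permutation p = 0.0688, adjusted 0.116) and -0.651 without pair 3. For Csf1 in OPCs r was 0.687 (permutation p = 0.0414, adjusted 0.0798) and then -0.26. Neither passed, and both values rested on those 2 libraries. In OPCs Csf3r, Csf2rb and Irf8 did pass, with r = 0.957, 0.894 and 0.922 (permutation tests, adjusted p = 0.0022, 0.0060 and 0.0067). Without pair 3 these were 0.791, 0.632 and 0.637. The same genes passed in neither oligodendrocytes nor astrocytes.

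Over all 43 libraries, the 5 genes most like Csf1r by Pearson's correlation of log2(CPM + 1), among 16626 genes with a mean of at least 1 CPM, were Ctss (0.996), Tyrobp (0.995), P2ry12 (0.995), C1qb (0.994) and Fcrl2 (0.993). Ctss encodes a lysosomal protease, Tyrobp an adaptor of myeloid receptors, P2ry12 a purine receptor of microglia and C1qb a complement chain. Of the other genes of the set, Spi1 ranked 19, Runx1 67, Csf3r 103, Csf2rb 151 and Irf8 305 by this measure, with Csf1 at 1358 and Csf2ra at 3993. Those most like Csf1 were Epb41l2 (0.986), Sema4d (0.972), Zfp36 (0.971), Ptgs1 (0.971) and Gadd45b (0.966). Zfp36 and Gadd45b are genes that many cells switch on quickly under stress. Likeness to Il34 was weaker, at 0.834 for Myo16, 0.833 for Fsd1, 0.829 for Grm7, 0.828 for Gnb4 and 0.82 for Sema5a, each with its highest mean in OPCs. Cell type is shared by all these points, and the values describe it as much as any pair of genes.

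Partners and effectors of CSF1R signalling followed the receptor in part. Of 30 such genes all passed between microglia and oligodendrocytes, 26 higher and 4 lower in microglia. Against OPCs 24 were higher and 3 lower, and against astrocytes 25 and 2. Over all genes 69.7%, 71.7% and 72% passed in these comparisons, and 33.1%, 31.4% and 33.8% were higher in microglia. Tyrobp (1260 ± 166 CPM in microglia), Pik3ap1, an adaptor of phosphoinositide 3-kinase (597 ± 115), and the Src-family kinase Lyn (544 ± 37.6) had the highest levels. Fyn, another kinase of the same family, was at 13 ± 3.48 CPM in microglia and at 130 ± 23 in OPCs, and Sos1, an exchange factor for Ras, at 32.7 ± 6.69 and 71.1 ± 13.2. Both were lower in microglia in all 3 comparisons. The median log2 difference of the list was 3.58, 2.94 and 3.97 against oligodendrocytes, OPCs and astrocytes.

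Other growth factors of blood cells and their receptors were mostly too scarce to test, with 6 of 13 tested. Csf2rb2, the near copy of Csf2rb, was at 52.0 ± 8.46 CPM in microglia, Kitl, the ligand of KIT, at 17.3 ± 3.5 and Flt3 at 2.10 ± 1.15. Csf2, which encodes GM-CSF, the ligand of the receptor above, was at 0.631 ± 0.42 CPM in microglia and had a mean of 0.013 CPM or less elsewhere, and Csf3, which encodes G-CSF, at 0.185 ± 0.317 CPM in microglia. The receptor Kit had 20.6 ± 4.71 CPM in OPCs and 1.60 ± 1.77 in microglia. Of the other proteins that bind IL-34, the phosphatase Ptprz1 was at 2905 ± 455 CPM in OPCs, 1162 ± 128 in astrocytes, 219 ± 102 in oligodendrocytes and 21.1 ± 13.6 in microglia, lowest where Csf1r was highest, and the proteoglycan Sdc1 at 3.63 ± 0.929 CPM in OPCs and under 1 elsewhere.

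Of 28 further transcription factors of myeloid cells 27 were tested, and 24, 20 and 24 were higher in microglia than in oligodendrocytes, OPCs and astrocytes, with 2 lower each time, beside 33.1%, 31.4% and 33.8% of all genes higher in microglia. Zeb2 (1188 ± 116 CPM), Mef2a (654 ± 60.8) and Mef2c (505 ± 38.3) were highest there. Zeb2 was also at 471 ± 89.4 CPM in oligodendrocytes, unlike Spi1, so that these factors were shared between cell types to very different degrees. Sall1, a factor of microglial identity, was at 216 ± 49.4 CPM in microglia and 52.3 ± 9.05 in astrocytes.

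Between genotypes, none of the 9 genes passed in any cell type. In microglia, where 8 of the 9 could be tested, the log2 fold change of Rag2-/- over control was 0.04 for Csf1r (SE 0.09), 0.06 for Csf1 (SE 0.11), 0.03 for Spi1 (SE 0.09), 0.01 for Irf8 (SE 0.10), 0.12 for Runx1 (SE 0.12), 0.12 for Csf3r (SE 0.10) and -0.0039 for Csf2rb (SE 0.13), all with adjusted p = 0.999 by edgeR. Csf2ra had the widest gap, at 37.4 ± 11.3 CPM in Rag2-/- and 28.2 ± 11.5 in control microglia (log2 0.40, SE 0.25, unadjusted p = 0.12, adjusted p = 0.999). It was higher in the Rag2-/- library of all 6 pairs, and the log2 fold change was 0.25 without control replicate 1 and 0.60 with the littermate pair as a block (adjusted p = 0.973). Over all genes 0.00667% passed in microglia, 1 of 15003, which was Iftap.

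In the other cell types the errors were wider, most of all in oligodendrocytes. Oligodendrocytes had log2 fold changes of 0.61 for Csf1 (SE 0.31), 1.63 for Csf2rb (SE 0.93), -0.74 for Csf2ra (SE 0.89) and 0.91 for Irf8 (SE 1.64). Csf1 was higher in the Rag2-/- library of all 4 pairs there, at 48.2, 63.2, 40.1 and 30.5 CPM against 43.5, 57.6, 19.98 and 18.4 (unadjusted p = 0.0783, adjusted p = 0.998). Csf2rb was also higher in all 4 pairs, at the values given above, while in microglia it was lower in 5 of 6 pairs and higher in 1. Pair directions were looked at for all 9 genes in all 4 cell types without a test, and some such runs arise by chance. OPCs had 0.06 for Csf1r (SE 0.40) and 0.48 for Il34 (SE 0.44), and astrocytes 0.14 for Csf1r (SE 0.29) and 0.16 for Csf1 (SE 0.14). In astrocytes 7 of the 9 were tested, with Csf2rb and Runx1 under the count minimum, and in oligodendrocytes and OPCs all 9. The background was 0% of 13802 genes in oligodendrocytes (0 genes by edgeR and 467 at an unadjusted p under 0.05, with 206 by DESeq2 among 29204 genes tested without the count minimum), 0.00592% in OPCs and 0.00679% in astrocytes. In oligodendrocytes Iftap did not pass either (log2 -6.87, SE 1.41, adjusted p = 0.998), at 34 to 77 counts in controls and 0 to 2 in Rag2-/- libraries, so that the absence of calls there says little about the 9 genes. None of the 9 reached an unadjusted p of 0.05 in any cell type, and none passed by DESeq2. Of the pathway and marker lists, no gene passed in a comparison of genotypes or sexes within a cell type.

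**Figure D4:**
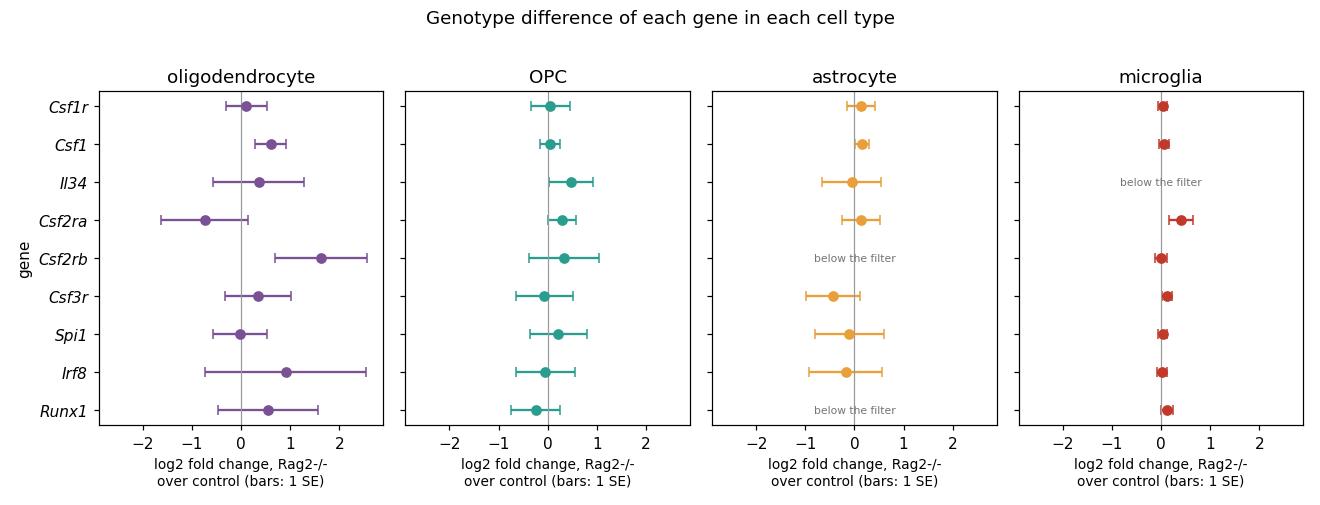
Log2 fold change of Rag2-/- over control (x axis, bars of 1 SE) for each of the 9 genes (y axis) in each cell type, from the edgeR fit with a term for sex. In microglia 7 of the 8 genes tested lie between -0.0039 and 0.12, with Csf2ra at 0.40, and the bars are several times wider in oligodendrocytes.

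The difference between genotypes was also compared between cell types, as the effect in one against the mean of the other 3. None of the 9 passed in any. Of all 21368 genes, 2.54% passed for oligodendrocytes, or 542 genes, and 252 with the littermate pair as a block. The share was 0.00936% for microglia, 0.00468% for OPCs and 0% for astrocytes (0 genes by edgeR, 1099 at an unadjusted p under 0.05). The nearest of the set was Csf2ra in oligodendrocytes (log2 -1.02, SE 0.60, adjusted p = 0.377). Of the further lists, Irf2, an interferon regulatory factor, passed for oligodendrocytes (log2 -1.32, SE 0.26, adjusted p = 0.00495), as did Dcn, a proteoglycan of fibroblasts (log2 -5.66, SE 1.17, adjusted p = 0.00605). This joint fit uses 1 spread per gene for all cell types, and the fit of oligodendrocytes alone called 0 of 13802 genes for genotype. Whether the calls of Irf2 and Dcn hold in the other fits is not given here.

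Between females and males none of the 9 passed either, at a background of 0.0467% in microglia (7 genes), 0.0407% in astrocytes (6), 0.0362% in oligodendrocytes (5) and 0.0296% in OPCs (5). With the littermate pair as a block 19 genes passed in astrocytes and 1 in oligodendrocytes. In microglia the log2 differences of the 8 genes tested lay between -0.02 and 0.21. Unadjusted p-values under 0.05 were reached by Csf3r in oligodendrocytes (log2 -2.14, SE 0.76, unadjusted p = 0.0164, adjusted p = 0.506) and by Csf1r in astrocytes (log2 -1.003, SE 0.30, unadjusted p = 0.00379, adjusted p = 0.715). Without the count minimum Csf1r passed in astrocytes (log2 -0.997, adjusted p = 1.75e-07) and OPCs (log2 -0.72, adjusted p = 0.000704). With the littermate pair as a block the sign turned, to 0.60 in astrocytes (adjusted p = 0.807) and 0.98 in OPCs (adjusted p = 0.616). That fit takes sex from pair 6 alone, the one pair of unlike sex, and pair 3, the pair with the highest panel sums, was male.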

How the data were processed

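RNA-seq counts per gene were deposited by the authors for 43 libraries. Per the methods and the labels, amplified cDNA was sequenced as paired reads of 50 bases, aligned with STAR 2.7.8a to GRCm39 and counted with HTSeq on the Ensembl annotation; the strand setting was not given in the sources used here. The 5 HTSeq summary sums, which held 33.5% to 52.0% of read pairs, were left out.

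Counts were used as deposited. Genotype and sex were tested within each cell type, and cell types and the difference of genotype effects in joint fits of all libraries, with the quasi-likelihood test of edgeR 4.0.16 (limma 3.58.1, R 4.3.3; TMM scaling, filterByExpr with a minimum count of 10 and a total of 15), two-sided, with Benjamini-Hochberg adjustment over all genes tested and a threshold of 0.05. DESeq2 1.42.0 was an alternative, beside other size factors, no count minimum, no sex term, heterozygous controls alone, control libraries alone, no mitochondrial genes and each library or pair left out. The scripts were tested on simulated data. TPM used exon lengths of GENCODE M39, whose transcript starts on GRCm39 also placed the promoters. Permutation tests used SciPy 1.17.1, with 100000 resamples where not exact.

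Replicate numbers mark littermate pairs, per the methods. Deviations from group means correlated by 0.0836 to 0.132 within pairs on average, by cell type, and by -0.033 to -0.0169 between pairs. Pair and mouse were blocks in alternative fits.

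The 9 genes and the marker and pathway lists were chosen with earlier results of these data known. Named beside the 9 were Rag2 and Iftap, the 5 genes most like Csf1r, Csf1 and Il34, list members past the threshold in a comparison of genotypes or sexes, and the 3 most abundant in microglia of each pathway list. Fyn, Sos1, Kit, Csf2, Csf3 and Sall1 were named after their values were seen, as were the ratio to and correlation with the microglia panel and the levels without pair 3 chosen.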

Additional observations from a re-analysis of the deposited data

Results flagged for a closer look

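Each of the 9 genes was looked at in each group of libraries of 1 cell type and genotype, which gave 72 sets of values. In 19 of the 72 sets, 1 library lay far from the others by Dixon's criterion. Chance flags about 1 in 20 sets, and the 9 genes share libraries, so that 1 library can bring several flags.

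Pair 3 gave most of them, always as the highest library. In Rag2-/- OPCs replicate 3 stood out for Csf1r (438.5 CPM), Csf2rb (6.14 CPM), Csf3r (39.7 CPM), Spi1 (58.2 CPM), Irf8 (15.4 CPM) and Runx1 (26.4 CPM), and in control OPCs for Runx1 (44.4 CPM). In Rag2-/- astrocytes it stood out for Spi1 (5.60 CPM), Irf8 (5.25 CPM) and Runx1 (4.39 CPM), and in control astrocytes for Csf1r (137 CPM). In oligodendrocytes it stood out for Csf1r (335 CPM) and Csf3r (35.0 CPM) in the Rag2-/- group and for Csf3r (28.2 CPM) in controls. The microglia panel summed to 612 CPM in the first of these libraries, against 145 to 215 CPM in the other Rag2-/- OPC libraries. Csf1, Il34 and Csf2ra were not among the genes flagged in pair 3. Mean levels without that pair were 138 CPM for Csf1r in OPCs, 114 in oligodendrocytes and 43.9 in astrocytes.

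Microglia control replicate 1, the smallest library, stood out as the lowest of its group for Csf2ra (6.31 CPM), Spi1 (416 CPM) and Runx1 (188 CPM), and as the highest for Il34 (1.69 CPM). Astrocyte control replicate 5 was the highest of its group for Il34 (4.38 CPM, 36 counts). What set these libraries apart was not tested.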

How the results depend on the processing

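The direction between microglia and each other cell type held for all 9 genes in all 12 fits, and the call too, except for Csf2ra and Il34 as given above. Over the 6 cell type pairs, 560 of 594 values kept their direction and side of the threshold, 33 lost a call and 1 gained one. The mouse block lost the 4 calls given above and changed no other of the 9 genes. The median of all genes lay between -0.193 and 0.261 over these fits. Below the threshold the sign is loose: 77 of 549 genotype, 59 of 483 sex and 42 of 324 values of differing effects changed it, and 4 between cell types.

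Counts over all genes moved far more, and the cause was not tested. Without the count minimum the genotype counts in oligodendrocytes, OPCs, astrocytes and microglia became 14, 90, 30 and 9, the sex counts 99, 72, 118 and 25, and the counts of differing genotype effects 1309, 131, 74 and 60. DESeq2 gave 206, 5 and 3 for genotype in oligodendrocytes, OPCs and microglia, and 422, 13, 19 and 11 for sex in the 4 cell types. The littermate pair as a block gave 1 and 19 for sex in oligodendrocytes and astrocytes and 252 for the effect in oligodendrocytes. Leaving out libraries or pairs gave 3 to 5 for sex in oligodendrocytes, 1 to 2 for genotype in microglia, and for differing effects 228 (without pair 4) to 902 (without pair 1) in oligodendrocytes, 0 to 2 in OPCs, 0 to 1 in astrocytes and 0 to 2 in microglia. With the littermate pair as a block the log2 sex difference turned in OPCs for Csf1r (0.98), Csf3r (1.25), Spi1 (1.39) and Runx1 (0.91) and in astrocytes for Csf1r (0.60), and none passed. For Irf8 the effect in oligodendrocytes ranged from -0.92 (without pair 5) to 1.63 (without pair 3), with none past the threshold.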
